A study of Mus musculus with 6 samples.

Results

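The genes described here are the neurotransmitter receptors of the mouse expression array, 79 genes of 18193 that carry a single gene symbol. They were chosen by the start of their symbol and not by any measured value: subunits of the receptors for GABA, glycine, glutamate and acetylcholine, and the receptors for serotonin, dopamine and noradrenaline. The 79 genes are read by 152 of 45037 probe sets (a probe set is the group of short oligonucleotides that reads 1 transcript region); 32 genes have 1 probe set and 47 have several, up to 5. Each gene is represented by the probe set with the highest mean signal, and the other probe sets are given where they differ. Further receptor genes were not analysed here.

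Neurotransmitter receptors are of 2 kinds. Ligand-gated channels (GABA-A, glycine, AMPA, kainate, NMDA and nicotinic receptors, and the serotonin 5-HT3 receptor) are assembled from several subunits around an ion pore, so the subunit genes set which channel a neuron builds. The other receptors, such as the metabotropic glutamate, muscarinic, dopamine and adrenergic receptors, act through G proteins. In the mature midbrain these receptors receive synaptic input; in the embryonic neural tube, where synapses have yet to form, several of them are already found on progenitors and young neurons and respond to transmitter released outside synapses. Some receptor genes carry CpG-rich start regions, the kind of sequence at which Polycomb complexes are often found. Ezh2 is the catalytic subunit of Polycomb repressive complex 2, which trimethylates lysine 27 of histone H3 (H3K27me3), a mark of repressed genes.

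RNA of the dorsal midbrain at embryonic day 10.5 was hybridised to 6 arrays, 3 of Ezh2 cko embryos and 3 of control embryos, all on a C57BL/6 background. Ezh2 cko embryos were *Wnt1-Cre*+/*Ezh2*[SET]lox/lox, so that the sequence coding for the catalytic SET domain is removed in cells with a history of *Wnt1* expression. By the study's methods, controls were littermates, either *Wnt1-Cre*-/*Ezh2*[SET]lox/lox without the Cre or, with the Cre and 1 floxed allele, *Wnt1-Cre*+/*Ezh2*[SET]wt/lox, whereas the sample labels call them wild type; which control embryo carried which genotype, and whether a control carried Cre, was not available per array. *Wnt1-Cre* is also active in the neural crest, and recombination in the rostral dorsal midbrain was incomplete. Each group came from more than 1 litter, and the litters are not assigned to arrays, so p-values measure the spread between these 3 samples per group.

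Of 12 midbrain markers, *Otx2* and *En2*, transcription factors of the midbrain, averaged 11.3 and 12.5 on the log2 scale in Ezh2 cko and 11.3 and 12.3 in control. In the same list 10 differences were positive, the widest being *Wnt1* (0.90, adjusted p = 0.0712), and 2 were negative: *Tal2*, a factor of midbrain GABA neurons, at 9.81, 9.74 and 8.82 in Ezh2 cko and 10.43, 10.45 and 10.13 in control (-0.88, adjusted p = 0.355), and *Pax5* (-0.25, adjusted p = 0.642). *Ezh2* itself read 11.79, 11.74 and 11.72 in Ezh2 cko, against 11.69, 11.76 and 11.66 in control; where this probe set lies relative to the removed exons is not known, so it does not check the labels. Over all genes, 54 were higher in Ezh2 cko at an adjusted p under 0.05 (0.297%) and 1 was lower (0.0055%). The study's methods used another threshold, an unadjusted p up to 0.01 together with a log2 difference of 0.81 or more either way, by which 68 were higher (0.374%) and 6 were lower (0.033%).

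Among the 79 receptor genes 1, *Gabra4*, was higher in Ezh2 cko at an adjusted p under 0.05, none was lower and 78 did not pass. Counting any probe set of a gene, *Chrna3* passed as well. The methods' threshold took in 1 receptor gene, *Grik3*, and none that was lower. At an unadjusted p under 0.05, 11 receptor genes were higher (13.9%, against 6.12% of all genes) and 3 lower (3.8%, against 2.75%). The 3 Ezh2 cko arrays lay above the 3 control arrays for 9 receptor genes (11.4%, against 7.52% of all genes): *Gabra4*, *Gabra5*, *Glrb*, *Gria1*, *Grik3*, *Grik4*, *Grin3a*, *Chrna3* and *Drd2*. They lay below for 4 (5.06%, against 7.88%): *Gabra2*, *Gabre*, *Grik2* and *Chrnb3*. These 4, and *Gabra5*, *Gria1*, *Grin3a* and *Drd2* among the higher ones, read below the median of all probe sets on every array. The median log2 difference, Ezh2 cko minus control, was 0.01 over the receptor genes and -0.02 over all genes, and 43 receptor genes had a positive difference (54.4%, against 43% of all genes). As among all genes (60.3%), most differences were small: 49 of 79 (62%) were under 0.1 on the log2 scale, with a median standard error of 0.095. For 63 receptor genes (79.7%, against 90.3% of all genes) the 95% interval of the difference lay within 0.5 log2 units of 0, and for the other 16 it reached beyond.

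**Figure D1:**
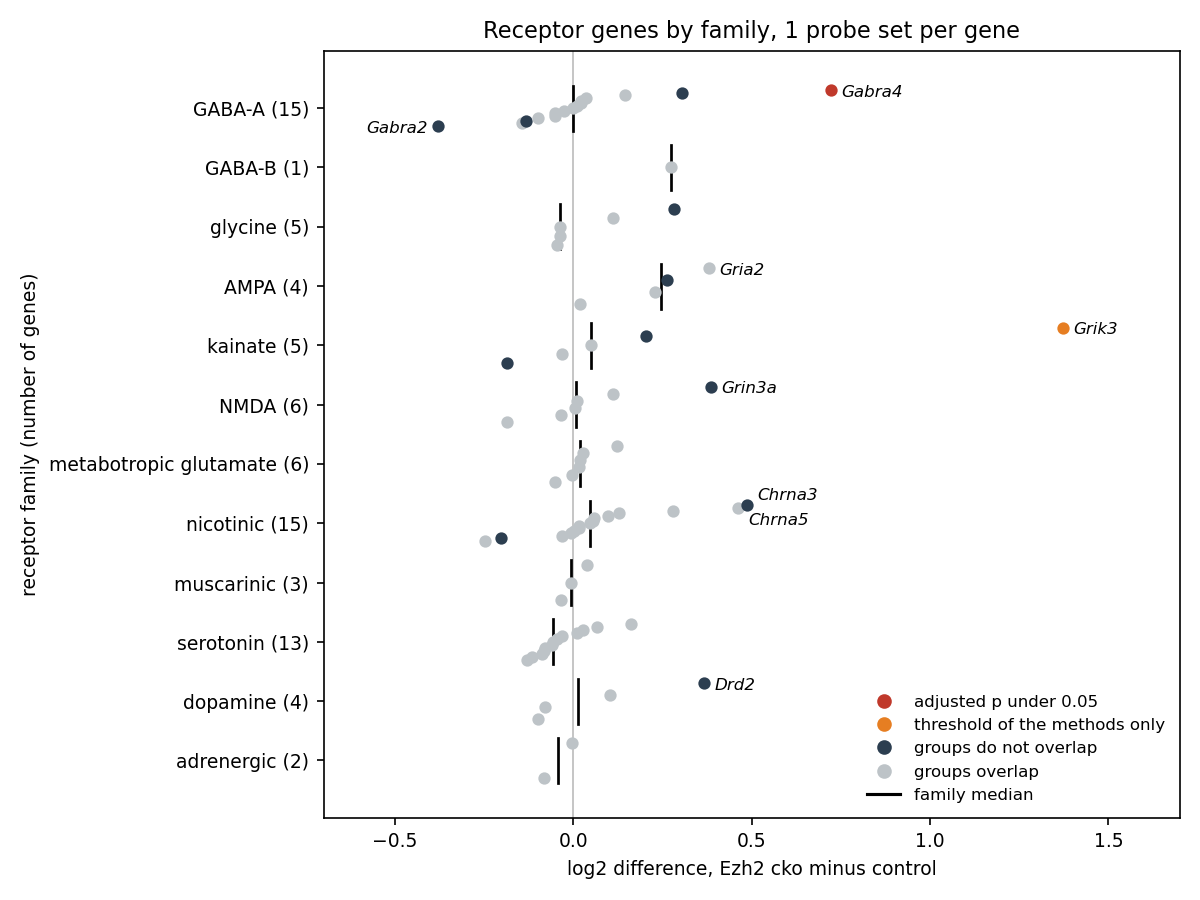
Log2 difference, Ezh2 cko minus control, of the 79 receptor genes in their 12 families, 1 point per gene, with the family median as a black bar. *Grik3* (1.37) and *Gabra4* (0.72) stand farthest to the right, *Gabra2* (-0.38) farthest to the left, and the serotonin receptors lie within -0.13 and 0.16.

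The start regions of *Gabra4*, *Grik3*, *Chrna3* and *Chrnb4* are shown with their CpG content. The sequences are those just upstream of an annotated start of transcription in RefSeq (mouse build GRCm38.p6), 5′ to 3′ on the gene's strand, with each CG in capitals. For *Chrna3* 150 bases are given. For the other 3 genes 30 bases are given, because the upstream bases lie inside an annotated span. This span is that of *Gabrb1* for *Gabra4*, and that of the gene itself for *Grik3* and *Chrnb4*. The start used for *Grik3* and *Chrnb4* is thus not the outermost one of the gene.
Gabra4, chr5:71658309-71658338, minus strand: tcctcaaacaacctatgagaaaggctcttc
Grik3, chr4:125490666-125490695, plus strand: agatgtgCGcagCGcCGCGgggCGcccccc
Chrna3, chr9:55026563-55026712, minus strand: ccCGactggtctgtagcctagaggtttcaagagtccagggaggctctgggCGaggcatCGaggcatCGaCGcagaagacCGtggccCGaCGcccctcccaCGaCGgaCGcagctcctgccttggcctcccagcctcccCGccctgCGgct
Chrnb4, chr9:55048545-55048574, minus strand: ggcacagagagactgccagctgggacagac

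In the window of 300 bases around the start (250 before, 50 after), *Grik3* had 50 CG, a number reached by 0.855% of all 32851 windows. The windows of *Chrna3*, *Chrnb4* and *Gabra4* had 18, 14 and 12 CG, which 29.7%, 36.3% and 39.6% of windows reached. The 150 bases before the start held 26 CG in *Grik3*, 13 in *Chrna3*, 7 in *Gabra4* and 3 in *Chrnb4*. A window was found for 61 of the 79 receptor genes, with a median of 13 CG per gene against 8 over all 27025 genes. Of these 61, 22 had 20 CG or more (36.1%, against 28.8% of all genes). The median log2 difference was -0.01 in the 22 genes with 20 CG or more and 0.00 in the 39 with fewer, and 11 of 22 and 21 of 39 were positive. Of the genes without overlap, 4 higher and 3 lower ones were among the 22, and 3 higher and 0 lower ones among the 39. Over all genes, with or without a window, 7.52% were higher and 7.88% lower without overlap. *Gria1*, *Grin3a* and *Chrnb3*, also without overlap, had no window and are not in these counts. The split by CG number was not tested, and nothing is read from it. The dinucleotide CG was counted once per position, and it reads the same on both strands.

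Of the 15 GABA-A receptor subunits, which form the chloride channels opened by GABA, only *Gabra4* passed the test, as higher in Ezh2 cko; the other 14 did not. *Gabra4*, an alpha subunit known from extrasynaptic receptors of the adult thalamus and dentate gyrus, read 6.71, 6.80 and 6.57 in Ezh2 cko, against 6.07, 5.96 and 5.88 in control. Every Ezh2 cko array lay above every control array. The means were 6.69 ± 0.11 in Ezh2 cko and 5.97 ± 0.10 in control (SD, n = 3 each), a log2 difference of 0.72 ± 0.09 (SE) or 1.65-fold, with a 95% interval of 0.52 to 0.93 (limma, adjusted p = 0.0265). *Gabra4* lost the call when any 1 array was left out (adjusted p between 0.0615 and 0.121, difference between 0.67 and 0.78). The second *Gabra4* probe set read 4.24, 4.32 and 4.18 in Ezh2 cko and 4.40, 4.31 and 4.31 in control, a difference of -0.09, so the 2 probe sets of the gene disagreed.

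*Gabra2*, another alpha subunit and abundant in embryonic brain, was the receptor gene with the lowest difference. Its signal here was below the median of all probe sets on every array (5.68 to 5.72). Its probe set read 4.05, 4.19 and 3.96 in Ezh2 cko, against 4.43, 4.41 and 4.51 in control, without overlap (difference -0.38 ± 0.09, adjusted p = 0.217). The other 4 *Gabra2* probe sets differed by 0.12, -0.04, -0.05 and -0.08, so the lower values were seen on 1 of 5 sets. *Gabra5*, the alpha subunit of tonically active hippocampal receptors, read 3.87, 3.60 and 3.53 in Ezh2 cko and 3.43, 3.36 and 3.29 in control (0.30, adjusted p = 0.504). The groups were separate here too, by a narrow gap.

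Over the 5 alpha subunits the differences ran between -0.38 and 0.72, and the groups did not overlap for 2 higher and 1 lower of the 5 (7.52% and 7.88% over all genes). The 10 beta, gamma, delta, epsilon, pi, theta and rho subunits lay between -0.14 and 0.15, and for all 10 the 95% interval lay within 0.5 of 0, as for 90.3% of all genes. *Gabrp*, the pi subunit known from reproductive tissue, differed by 0.02. *Gabre*, the epsilon subunit, was the member of these 10 whose groups were separate, with 4.70, 4.70 and 4.60 in Ezh2 cko and 4.80, 4.85 and 4.75 in control (-0.13, adjusted p = 0.754). *Gabbr1*, which encodes the GABA-binding subunit of the metabotropic GABA-B receptor, read 8.66, 8.67 and 8.89 in Ezh2 cko and 8.04, 8.66 and 8.70 in control (0.27 ± 0.17, adjusted p = 0.780). The groups overlapped, and control 1 was the low array: without it the difference was 0.061.

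None of the 5 glycine receptor genes passed the test. *Glrb*, the beta subunit that ties glycine receptors to gephyrin, read 6.77, 6.70 and 6.93 in Ezh2 cko and 6.34, 6.54 and 6.67 in control, narrowly without overlap (0.28 ± 0.11, adjusted p = 0.576). The second *Glrb* probe set differed by 0.24, also without overlap. The 4 ligand-binding alpha subunits lay between -0.04 and 0.11, *Glra3* being the highest.

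The 4 AMPA receptor subunits, which carry most fast excitatory transmission in the adult brain, all had positive differences, with a median of 0.25, but none passed the test. *Gria2*, the subunit that makes the channel impermeable to calcium once its RNA is edited, read 5.13, 5.57 and 5.60 in Ezh2 cko and 4.88, 5.07 and 5.21 in control (0.38 ± 0.14, adjusted p = 0.569). Ezh2 cko 1 lay between the control arrays, and the other 2 *Gria2* probe sets differed by 0.21 and -0.02. *Gria1* read 4.08, 3.90 and 3.98 in Ezh2 cko and 3.60, 3.71 and 3.87 in control (0.26, adjusted p = 0.543), with groups apart by a small gap. *Gria3* differed by 0.23 with overlap, and *Gria4* by 0.02.

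The AMPA subunits had the same lowest and the same highest array as the neuron, mesenchyme and macrophage markers. Relative to the mean of the 6 arrays, the median AMPA subunit stood at -0.00058, 0.052 and 0.20 in Ezh2 cko and at -0.31, -0.08 and 0.06 in control. The median of 22 neuron markers stood at -0.08, 0.15 and 0.37 in Ezh2 cko and at -0.39, -0.01 and -0.02 in control, with control 1 the lowest and Ezh2 cko 3 the highest in both sets. For the mesenchyme markers these 2 arrays stood at -0.40 and 0.21, and for the macrophage markers at -0.55 and 0.27, again the lowest and the highest. Only the neuron markers were entered into a fit. With the neuron marker mean added to the fit, the difference of *Gria2* was 0.12 and that of *Gria4* -0.14. In RNA of a whole tissue piece, more cells of a type and more RNA per cell cannot be told apart.

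*Grik3* had the widest difference of all receptor genes. It encodes a kainate receptor subunit of low glutamate affinity. The probe set read 7.55, 7.72 and 8.14 in Ezh2 cko, against 6.42, 5.95 and 6.93 in control. The groups were separate, yet the control arrays alone spanned close to 1 log2 unit. Means were 7.80 ± 0.30 in Ezh2 cko and 6.43 ± 0.49 in control, a log2 difference of 1.37 ± 0.24 or 2.59-fold, with an interval of 0.83 to 1.92 (unadjusted p = 0.000341, adjusted p = 0.0953). *Grik3* therefore passed the threshold of the methods and not the adjusted one. The second *Grik3* probe set, at 5.31, 5.13 and 5.10 in Ezh2 cko and 5.40, 5.14 and 5.05 in control, showed no such difference (-0.01, interval -0.26 to 0.24).

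The other 4 kainate subunits lay between -0.19 and 0.20. *Grik4*, which binds kainate with high affinity, read 6.79, 6.72 and 6.78 in Ezh2 cko and 6.58, 6.71 and 6.39 in control (0.20, adjusted p = 0.695), so that the groups met almost at the same value. Without control 3 the difference was 0.12. *Grik2* was lower without overlap on the probe set that represents it (-0.19, adjusted p = 0.648), while its other set differed by 0.08 the opposite way. *Grik5* differed by -0.03 and *Grik1* by 0.05.

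None of the 6 NMDA receptor subunits passed the test. *Grin3a*, a glycine-binding subunit of young neurons that lowers calcium entry, read 4.89, 4.46 and 4.54 in Ezh2 cko and 4.11, 4.21 and 4.40 in control (0.39 ± 0.13, adjusted p = 0.50). The groups did not overlap, and Ezh2 cko 1 was the high array, without which the difference was 0.26; the other 2 *Grin3a* sets each differed by 0.11. *Grin2d*, the embryonic NMDA subunit of brainstem and midbrain, had lower means in Ezh2 cko on both of its sets (-0.19, adjusted p = 0.729, or -0.12 without control 1, and -0.25, adjusted p = 0.529, without overlap on the second). *Grin3b*, known from motor neurons, differed by 0.00. The 6 metabotropic glutamate receptors lay between -0.05 and 0.12, none with separate groups: *Grm3* was at 0.12 with a wide interval of -0.32 to 0.56, *Grm8* at -0.05 and *Grm4* at -0.0049.

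**Figure D2:**
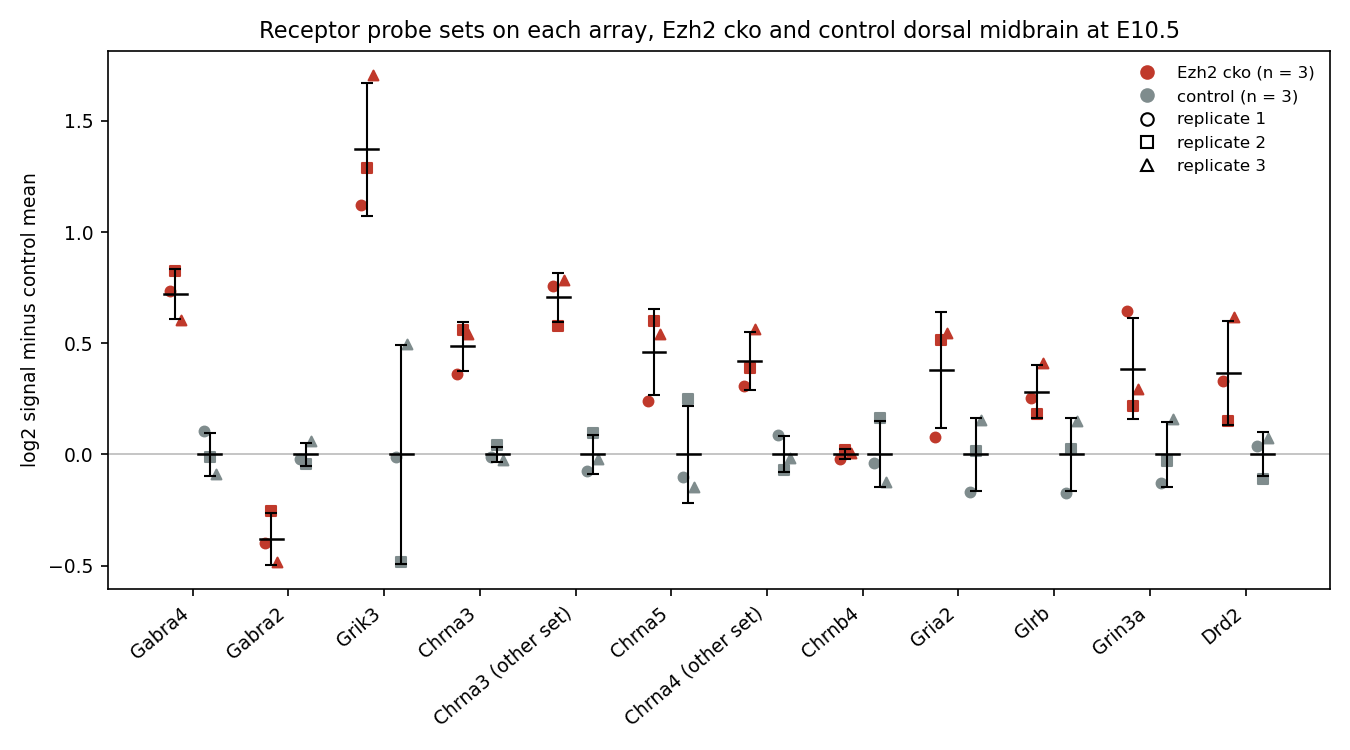
Log2 signal of 12 receptor probe sets on each array minus the control mean, Ezh2 cko in red and control in grey, with mean and SD (n = 3 each). *Gabra4* and both *Chrna3* sets are tight in both groups and apart, the *Grik3* control arrays spread widely, and *Chrnb4* shows no difference.

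The 15 nicotinic acetylcholine receptor subunits had 11 positive differences and a median of 0.05. *Chrna3*, the alpha subunit that binds acetylcholine in the receptors of autonomic ganglia and of the medial habenula and its midbrain target, was the member that passed on a probe set other than its representative. The representative set read 8.26, 8.46 and 8.44 in Ezh2 cko, against 7.89, 7.94 and 7.87 in control (0.49 ± 0.08, adjusted p = 0.0870). The next set read 8.16, 7.98 and 8.19 in Ezh2 cko, against 7.33, 7.50 and 7.39 in control (0.71 ± 0.09 or 1.63-fold, adjusted p = 0.0265). Both separated all Ezh2 cko arrays from all control arrays, and the third set differed by 0.14 in the same direction. The call on the second set was lost when any 1 array was left out (adjusted p between 0.0513 and 0.132), with the difference between 0.67 and 0.77.

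*Chrna5*, an accessory subunit that joins receptors of the alpha 3 and alpha 4 type, read 6.14, 6.50 and 6.44 in Ezh2 cko and 5.80, 6.15 and 5.75 in control (0.46 ± 0.13, adjusted p = 0.408). Control 2 and Ezh2 cko 1 were nearly level, so the groups just overlapped. *Chrnb4*, the beta partner of *Chrna3* in ganglia, did not share the difference: 5.27, 5.31 and 5.30 in Ezh2 cko and 5.25, 5.46 and 5.17 in control (0.00, interval -0.21 to 0.21). *Chrnb2*, the other common beta partner, differed by 0.28 (adjusted p = 0.637) with overlap. *Chrna4*, which with *Chrnb2* makes the main nicotinic receptor of the brain, differed by 0.13 on its representative set, while another set read 5.39, 5.47 and 5.65 in Ezh2 cko and 5.17, 5.01 and 5.07 in control (0.42, adjusted p = 0.205).

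The opposite sign was seen in *Chrna7*, whose homomeric receptor is highly permeable to calcium, at 7.17, 7.43 and 7.38 in Ezh2 cko and 7.37, 7.65 and 7.70 in control (-0.25, adjusted p = 0.677). Its groups overlapped slightly, and its second set differed by -0.01. *Chrnb3* was lower without overlap (-0.20, adjusted p = 0.614). The 5 subunits of the muscle receptor, *Chrna1*, *Chrnb1*, *Chrnd*, *Chrne* and *Chrng*, lay between -0.01 and 0.10, and all 5 intervals lay within 0.5 of 0. The 14 skeletal muscle markers had a median difference of -0.06, 4 of them positive, over a range of -0.52 to 0.65. Without overlap, 2 were higher and 2 lower (14.3% each, against 7.52% and 7.88% of all genes). None of the 14 passed the test. Of the 10 neuronal subunits 7 were positive, over a range of -0.25 to 0.49.

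The 3 muscarinic receptors, *Chrm1*, *Chrm3* and *Chrm4*, differed by -0.01, -0.03 and 0.04. Of the 13 serotonin receptors 9 had negative differences (69.2%, against 57% of all genes) and none had separate groups. The range was -0.13 (*Htr1a*, an inhibitory receptor of serotonin neurons and their targets) to 0.16 (*Htr2c*). The *Htr2c* controls spread widely, and the difference was 0.37 without control 2 and -0.014 without control 3. For 12 of the 13 (92.3%) the interval lay within 0.5 of 0, a share near that of all genes. *Htr1b*, found on axon terminals, differed by 0.01, and the channel subunits *Htr3a* and *Htr3b* by 0.07 and -0.09.

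*Drd2*, the inhibitory dopamine receptor that midbrain dopamine neurons later use as an autoreceptor, read 4.82, 4.64 and 5.10 in Ezh2 cko and 4.52, 4.37 and 4.56 in control (0.37 ± 0.12, adjusted p = 0.504). The groups did not overlap, and Ezh2 cko 3 was the high array: without it the difference was 0.24. *Drd3* differed by 0.10 and *Drd4* by -0.10, and a second *Drd4* set by 0.27. Of the adrenergic receptors, *Adra1b* differed by -0.08 and *Adra2c* by -0.0047. Another *Adra2c* set was lower in Ezh2 cko without overlap: 4.19, 3.88 and 3.95 in Ezh2 cko, against 4.33, 4.48 and 4.48 in control (-0.43, adjusted p = 0.254).

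By mode of action, 8 of the 52 channel subunits had higher (15.4%) and 4 had lower values (7.69%) without overlap, and of the 27 G protein-coupled receptors 1 (*Drd2*) was higher (3.7%) and none was lower, beside 7.52% and 7.88% over all genes. The medians were 0.02 and -0.01. This difference between the kinds of receptor was not tested.

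Of the 47 receptor genes with several sets, 29 had sets of both signs (61.7%, against 53.5% of all genes with several sets), most of them differences near 0. Of the 2 genes with a set past the adjusted threshold, *Gabra4* had another set of opposite sign and *Chrna3* did not. Of the 73 sets that did not represent a gene, 1 (*Chrna3*) was higher at an adjusted p under 0.05, against 0.184% of all probe sets, and none was lower (0.00444%). At an unadjusted p under 0.05, 4 of the 73 were higher (5.48%) and 3 lower (4.11%). Over all genes, with 1 set per gene, these shares were 6.12% and 2.75%. The arrays carry no call of presence, and signals are compared only within a probe set. Of the 79 representative sets, 26 had a mean signal above the median of all probe sets, against 12024 of 18193 over all genes. Most receptor genes thus read dimmer than most genes.

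**Figure D3:**
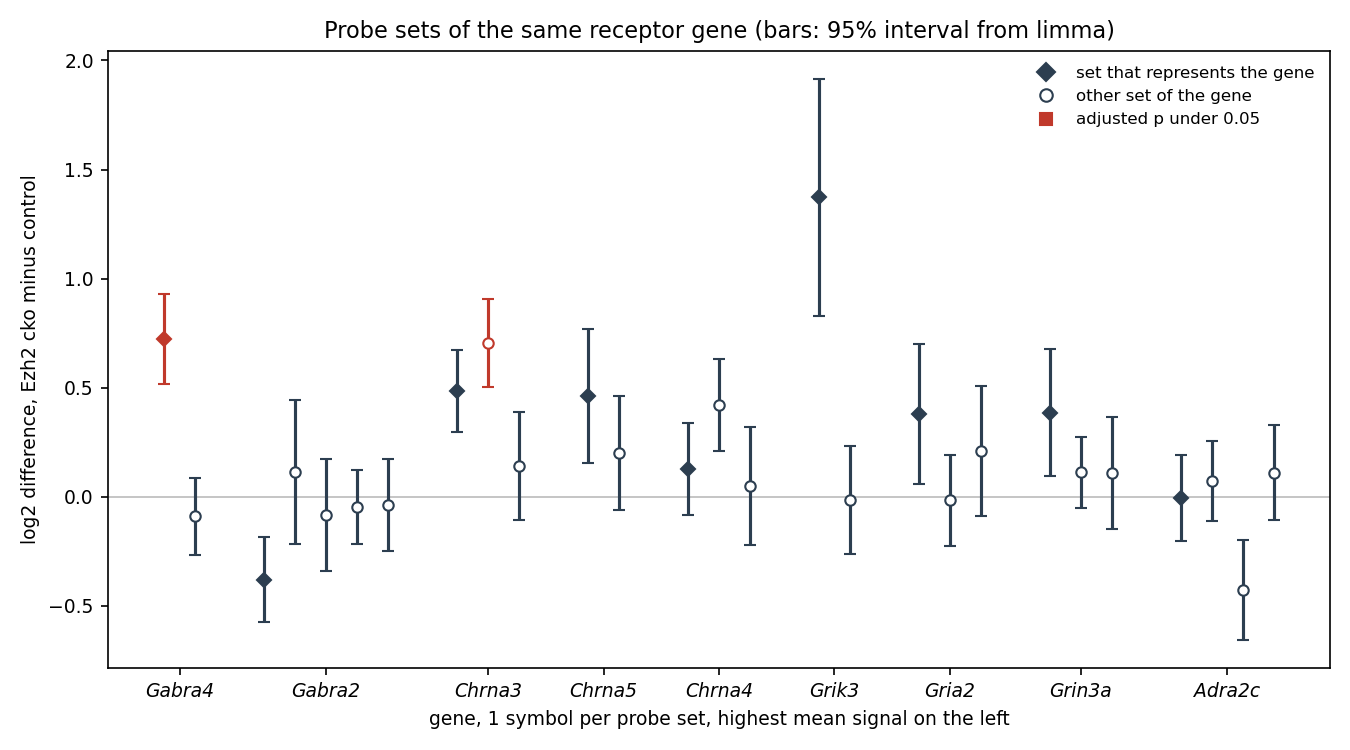
Log2 difference, Ezh2 cko minus control, with its 95% interval for each probe set of 9 receptor genes, the representative set as a diamond. The 3 *Chrna3* sets lie above 0, whereas for *Gabra4*, *Grik3* and *Gabra2* 1 set stands apart from the others.

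Many receptor genes have neighbours of the same kind. In the RefSeq annotation (GRCm38.p6), 27 receptor genes form 11 groups whose members start within 1 Mb of the next, and in 5 of the 11 all members had the same sign, a count in which many differences lie near 0 and from which nothing is read. The GABA-A group on chromosome 5 held *Gabrg1* (0.15), *Gabra2* (-0.38), *Gabra4* (0.72) and *Gabrb1* (-0.05) in this order, so that the highest and the lowest of the GABA-A subunits were adjacent receptor genes, with 1 other coding gene between them. *Gabra4* and *Gabrb1* are transcribed from opposite strands and their annotated starts lie 387 bases apart, so that the transcripts overlap there. On chromosome 7, *Gabrg3* was at -0.14 and *Gabra5* at 0.30.

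The nicotinic group on chromosome 9 ran *Chrna5* (0.46), *Chrna3* (0.49) and *Chrnb4* (0.00) with no coding gene between them. The annotated ends of *Chrna5* and *Chrna3* overlap. On chromosome 3, *Gria2* (0.38) and *Glrb* (0.28) are neighbours and both were positive. *Htr3a* (0.07), *Htr3b* (-0.09) and *Drd2* (0.37) lie elsewhere on chromosome 9, with 5 coding genes between *Htr3b* and *Drd2*. Without *Chrna3*, *Chrna5*, *Gabra4* and *Grik3* the median of the other 75 receptor genes was 0.00; these 4 were picked after their values were seen.

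**Figure D4:**
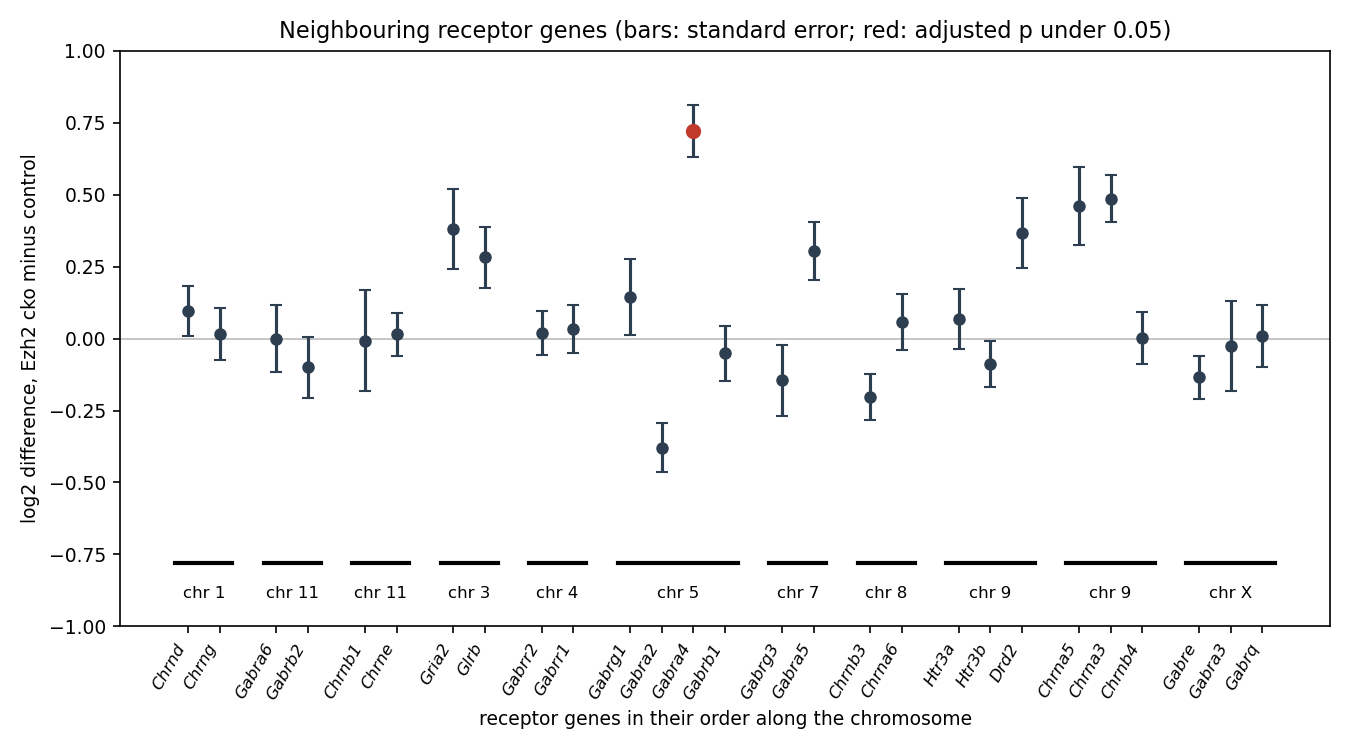
Log2 difference, Ezh2 cko minus control, with its standard error for the 27 receptor genes that have a receptor gene within 1 Mb, in chromosomal order and grouped by a black bar. *Gabra2* (-0.38) and *Gabra4* (0.72) are adjacent on chromosome 5, and *Chrnb4* (0.00) follows *Chrna5* (0.46) and *Chrna3* (0.49) on chromosome 9.

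Genes that make, package or remove the transmitters, 28 measured of 32 listed, gave no call in either direction, with a median of -0.03. Of the 28, 13 were positive (46.4%, against 43% of all genes). At an unadjusted p under 0.05, 3 were higher (10.7%, against 6.12% of all genes) and 1 lower (3.57%, against 2.75%). Without overlap, 3 were higher and 3 lower (10.7% each, against 7.52% and 7.88% of all genes). *Slc17a6*, the vesicular glutamate transporter of subcortical neurons, read 7.66, 8.26 and 8.93 in Ezh2 cko and 7.19, 7.79 and 7.94 in control (0.64, adjusted p = 0.697), with overlap; it was 0.32 without Ezh2 cko 3 and 0.42 without control 1. *Tph1*, a tryptophan hydroxylase of serotonin synthesis, read 5.22, 4.92 and 4.11 in Ezh2 cko and 5.52, 5.59 and 5.32 in control (-0.73, adjusted p = 0.506). The Ezh2 cko arrays were lower but spread over more than 1 log2 unit, and the difference was -0.41 without Ezh2 cko 3.

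Of 41 measured scaffold and auxiliary subunit genes (45 listed), 1 rose (2.44%, against 0.297% of all genes) and none fell, with a median of 0.02. *Cbln1*, a secreted protein that bridges presynaptic neurexins to delta-type glutamate receptors, read 9.56, 9.73 and 9.88 in Ezh2 cko, against 8.93, 9.08 and 8.87 in control (0.76 ± 0.10 or 1.70-fold, adjusted p = 0.0376). Its groups were far apart, yet it too lost the call when any 1 array was left out (adjusted p between 0.0615 and 0.146). *Lrrtm1*, a synaptic adhesion protein, differed by 0.84 (adjusted p = 0.534), with Ezh2 cko 3 at 7.62 beside 6.29 and 6.48 in the other Ezh2 cko arrays and 5.90, 6.05 and 5.91 in control, and by 0.43 without that array. *Nptx1*, a pentraxin that gathers AMPA receptors, read 5.40, 5.40 and 5.46 in Ezh2 cko and 4.28, 4.92 and 4.70 in control (0.79, adjusted p = 0.124). In all, 8 of the 41 were higher without overlap (19.5%, against 7.52% of all genes) and 2 lower (4.88%, against 7.88%).

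Receptors for other ligands (purines, histamine, opioids, cannabinoids and peptides), 37 measured of 44 listed, gave no call, with a median of 0.00. At an unadjusted p under 0.05, 2 were higher (5.41%, against 6.12% of all genes) and 0 lower (against 2.75%). Without overlap, 3 were higher (8.11%, against 7.52% of all genes) and 2 lower (5.41%, against 7.88%). *Cnr1*, the cannabinoid receptor of neurons, read 8.92, 9.21 and 9.45 in Ezh2 cko and 8.04, 8.65 and 8.84 in control (0.69, adjusted p = 0.427, and 0.45 without control 1). *Npy5r*, a neuropeptide Y receptor, read 5.31, 5.10 and 5.09 in Ezh2 cko and 4.76, 4.80 and 4.83 in control (0.37, adjusted p = 0.236). Both were higher in every Ezh2 cko array than in any control array.

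Markers of other cells that the tissue piece could hold were compared as well. Of 22 neuron markers 21 had a positive difference (median 0.32), of 13 mesenchyme markers 11 (median 0.34), of 9 neural crest and sensory neuron markers 8 (median 0.19), of 10 macrophage markers 10 (median 0.27) and of 12 midbrain markers 10 (median 0.21). None of these markers passed an adjusted p of 0.05; *Wnt1* (higher) and *Tal2* (lower) passed the methods' threshold. At an unadjusted p under 0.05, 9 neuron, 6 mesenchyme, 4 neural crest and sensory neuron, 2 macrophage and 4 midbrain markers were higher, and 2 midbrain markers (*Tal2* and *Pax5*) and 1 mesenchyme marker (*Foxc2*, -0.39) were lower; over all genes the shares were 6.12% higher and 2.75% lower. Neural progenitor markers had a median of 0.05, endothelial markers of 0.04 and erythroid markers of -0.07. Control 1 was the lowest array for the neuron (-0.39), mesenchyme (-0.40) and macrophage (-0.55) markers, relative to the mean of the 6 arrays, whereas the median receptor gene stood at -0.0091, -0.0053 and 0.045 in Ezh2 cko and at 0.023, -0.0040 and -0.034 in control.

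With the same neuron marker mean in the fit, *Gabra4* differed by 0.83 (adjusted p = 0.0736), *Grik3* by 1.16 (adjusted p = 0.512), *Chrna3* by 0.42 (adjusted p = 0.476) and its second set by 0.65 (adjusted p = 0.229). The difference of *Glrb* was then 0.13, that of *Chrna5* 0.30, that of *Drd2* 0.28, that of *Grin3a* 0.43 and that of *Gabra2* -0.36. The part of neural crest, mesenchyme and macrophage content in the receptor values was not tested.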

How the data were processed

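Total RNA of dorsal midbrain was labelled in 1 cycle and hybridised by the authors to an Affymetrix mouse expression array. The deposited values are log2 signals made with RMA (background correction, quantile normalisation and summary per probe set, per the labels); they hold no counts, so the number of arrays limits the precision. Of 45101 probe sets, 64 controls were left out. Symbols came from the platform annotation: 34945 probe sets had 1 symbol, 932 several and 9160 none; 2 sets that name a receptor together with another gene were left out. All 79 symbols are current in RefSeq.

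Groups were compared with limma 3.58.1 in R 4.3.3 (lmFit, eBayes) on all 45037 probe sets, with Benjamini-Hochberg adjustment over all of them and 0.05 as threshold; all p-values are two-sided. No test for the arrays is given in the methods, whose general t-test was an alternative. Named were members past either threshold, or without overlap at a log2 difference of at least 0.5, on any set, and per family the 2 members with the widest difference and the one of highest signal; of the other lists, members past a threshold and the 2 widest. *Gria1*, *Gria3*, *Gabra5*, *Gabre*, *Grik1*, *Chrna7*, other members outside this rule and the markers *Pax5* and *Foxc2* were added to describe their family or list after their values were seen. The members and lists were chosen with earlier results of these data known. Replicate numbers did not pair the arrays. The fit was tested on simulated data.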

Additional observations from a re-analysis of the deposited data

How the results depend on the processing

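The receptor count at the adjusted threshold was 1, *Gabra4*. It was 0 with the methods' t-test (*Gabra4* adjusted p = 0.421) and with the neuron marker term, and 0 to 0 when 1 array was left out. It was 2 with the set of largest variance per gene (*Gabra4* and *Chrna3*). A choice by variance across arrays can favour sets that separate the groups, so nothing is read from this count. With the mean of all sets per gene the count was 2 (*Chrna3*, adjusted p = 0.0221, and *Grik3*, adjusted p = 0.0499), with *Gabra4* then at 0.32. The share over all genes is not given for these 2 choices. At the methods' threshold the count of 1 was 0 with the t-test and with the mean of sets, 2 with the neuron marker term and 1 to 1 without 1 array. The 13 receptor genes whose groups do not overlap were 5 of 26 without dim sets and 17 to 24 without 1 array. Groups that are separate stay separate when an array is left out, so the latter count can only stay or rise. The share over all genes is not given for either count, so nothing is read from them. The scaffold count of 1 was 0 with the t-test, the set of largest variance, the neuron marker term and the replicate block, and 0 to 0 without 1 array. The median receptor difference ran from -0.01 to 0.04 without 1 array. The causes of the other changes were not tested.

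Same-numbered arrays deviated together with r of 0.065, -0.20 and 0.063, so the numbers do not pair them. With the replicate number as a block the receptor count was 1, but of *Grik3* (adjusted p = 0.0368) in place of *Gabra4* (adjusted p = 0.0584).

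Differences near 0 changed sign: with array weights *Adra2c* (0.017), *Chrm1* (0.0070) and *Gria4* (-0.011); with a second quantile normalisation *Gabrp* (-0.022), *Gria4* (-0.018), *Grin3b* (-0.035) and *Htr1b* (-0.027); with cyclic loess *Adra2c* (0.0019), *Chrm1* (0.013) and *Grin3b* (-0.00061); with the set of largest variance *Drd4* (0.27) and *Glra3* (-0.058); with the mean of sets *Drd4* (0.088). With the neuron marker term the sign changed for *Adra2c* (0.042), *Chrm1* (0.10), *Chrm3* (0.061), *Drd4* (0.028), *Gabbr1* (-0.050), *Gria4* (-0.14), *Grm3* (-0.28), *Htr1a* (0.049) and *Slc17a6* (-0.058). Not all of these were near 0 without the term: *Slc17a6* was at 0.64 and *Gabbr1* at 0.27. Without 1 array the ranges crossed 0 for *Adra2c* (-0.062 to 0.055), *Chrm1* (-0.051 to 0.050), *Chrm3* (-0.075 to 0.037), *Chrm4* (-0.0090 to 0.085), *Gabrp* (-0.020 to 0.083), *Gria4* (-0.095 to 0.091), *Grin3b* (-0.10 to 0.083), *Grm3* (-0.11 to 0.25), *Grm4* (-0.072 to 0.069), *Htr1b* (-0.045 to 0.087) and *Htr2c* (-0.014 to 0.37).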
